A study of Mus musculus with 2 samples.

Results

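The metallothionein genes Mt1, Mt2, Mt3 and Mt4 were followed in cultured mouse ureters with 4 genes of zinc control: the zinc-sensing transcription factor gene Mtf1, the zinc exporter gene Slc30a1 and the zinc importer genes Slc39a10 and Slc39a14. These 8 genes, of 29924 names with a measured probe on the array, were found by their name in the array files. They were chosen on the ratios of these same arrays, so all their values below are a description and carry no test. All 8 had a probe, 11 probes in all, and the brightest probe of each gene over the 4 channels served as its main probe. Of the 8 main probes, 7 were well above background in at least 0.5 of the spots of one treatment on both arrays; Mt4 was the exception.

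Ureters of newborn (P0) wildtype NMRI mice were explanted and cultured for 18 h, either with 10 µM cyclopamine, an alkaloid of plants that inhibits SMO, the transducer of SHH signals, or with solvent, given in the labels as DMF at 1 in 1000, whereas the methods of the study name ethanol as the solvent of cyclopamine. Each array compared a cyclopamine pool with a control pool of several ureters of the same sex: female pools on replicate 1, with the control in green, and male pools on replicate 2, with the dyes swapped. Replicate number, dye orientation and sex were thus the same split and cannot be told apart. A channel name in the labels gives IWP-2, an inhibitor of WNT secretion, whereas titles, treatment entries and protocol give cyclopamine, which was used here.

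Metallothioneins are short, cysteine-rich proteins that bind zinc and copper and also trap cadmium. In most tissues MT1 and MT2 are made by all cells, MT3 is best known from the brain and MT4 from stratified epithelia. Free zinc in the cell is sensed by MTF1, which binds metal response elements (MREs) in promoters and raises the transcription of Mt1, Mt2 and Slc30a1; glucocorticoids, inflammatory cytokines and oxidative stress are also known to raise Mt1 and Mt2. Proteins of the SLC30 family move zinc out of the cytosol and those of the SLC39 family move it in.

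The 250 bases before the annotated gene start were searched for matches to the core of such elements. They are given for the 2 members with the highest ratios, Mt1 and Mt2, and for Slc30a1, the exporter known as an MTF1 target. The sequences are from RefSeq (build GRCm38.p6, plus strand of the chromosome and of the gene), 5′ to 3′, and capitals mark matches to the MRE core, TGCACNC or TGCGCNC on either strand. Mt1 lies at chr8:94178839-94179088, Mt2 at chr8:94172368-94172617 and Slc30a1 at chr1:191906531-191906780.
Mt1: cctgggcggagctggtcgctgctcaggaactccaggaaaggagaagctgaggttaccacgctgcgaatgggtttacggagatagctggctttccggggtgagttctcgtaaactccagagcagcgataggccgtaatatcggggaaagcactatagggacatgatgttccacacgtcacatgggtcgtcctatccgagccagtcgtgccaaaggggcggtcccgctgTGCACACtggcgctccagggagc
Mt2: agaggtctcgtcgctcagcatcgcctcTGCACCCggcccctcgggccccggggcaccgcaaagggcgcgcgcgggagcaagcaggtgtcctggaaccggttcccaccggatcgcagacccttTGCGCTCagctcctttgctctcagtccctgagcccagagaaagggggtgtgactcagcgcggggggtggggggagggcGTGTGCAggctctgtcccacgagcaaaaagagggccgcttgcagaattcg
Slc30a1: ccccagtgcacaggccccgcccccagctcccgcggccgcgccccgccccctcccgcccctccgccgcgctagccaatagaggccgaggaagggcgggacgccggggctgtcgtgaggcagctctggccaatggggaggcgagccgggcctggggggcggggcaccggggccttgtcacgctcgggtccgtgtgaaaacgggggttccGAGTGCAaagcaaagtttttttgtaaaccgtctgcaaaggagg

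The Mt2 window held 3 MRE cores and the Mt1 window 1, which lay 23 to 17 bases before the start. The core was found at least 1 time in 21.4% of all 32851 promoter windows of this length, and at least 3 times in 1.26%. The Slc30a1 and Mt4 windows held 1 core each, and those of Mt3, Mtf1 and Slc39a10 held none of these letters. Slc39a14 had no window in the table. The core of the antioxidant response element, TGACNNNGC on either strand, which no MRE core overlapped, lay in the Mt2 and Slc30a1 windows and in 10.2% of all windows. The start is the one RefSeq gives for the gene. Neither the Mt1 nor the Mt2 window held TATAAA, and a transcript that starts further downstream would have other bases before it. The numbers of cores therefore hold for these windows only and do not rank the promoters of Mt1 and Mt2.

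Mt1 and Mt2 were higher with cyclopamine on both arrays, by a mean of 1.59-fold and 1.65-fold. None of the other 6 members reached 1.5-fold on both arrays. Intensities below are the background-corrected, dye-balanced signal of a probe in scanner units, which can be compared within an array and probe only.

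The main Mt1 probe (chr8:96704165-96704224, build mm9 of the array annotation, plus strand) gave a signal of 38005 for the control pool and 62648 for the cyclopamine pool of replicate 1. On replicate 2 it had 8513 in the control and 13056 in the cyclopamine pool. The 4 spots of the probe did not overlap between the treatments on either array: on replicate 1 they ran from 36440 to 40634 in the control and from 60885 to 64942 with cyclopamine, and on replicate 2 from 8023 to 9160 and from 12436 to 13719. Such spots repeat the same pool and are not replicates of the treatment. The share of all genes whose spots part in this way was not counted, so nothing is read from it. The log2 ratio of cyclopamine over control was 0.72 on replicate 1 and 0.62 on replicate 2, a mean of 0.67 ± 0.07 (SD, n = 2 arrays).

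The Mt2 probe (chr8:96697371-96697430, mm9, plus strand) read 36367 in the control and 55772 in the cyclopamine pool of replicate 1. On replicate 2 it read 7302 in the control and 13027 with cyclopamine. Its spots likewise did not overlap between treatments on either array, with the same limit. The log2 ratio was 0.62 on replicate 1 and 0.84 on replicate 2, a mean of 0.73 ± 0.15 (SD, n = 2 arrays). Mt2 had the larger ratio on replicate 2 and Mt1 on replicate 1, so the order of the 2 genes was not the same on both arrays. The spread between spots of these probes (SD of the log2 ratio 0.02 to 0.04) was smaller than the difference between the arrays. The probes of Mt1 and Mt2 share no run of more than 7 of their 60 bases.

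The arrays were not on a common scale, since the control channel of replicate 1 had a 5.32 times higher 75th percentile. When each channel was set against its own 75th percentile, the log2 level of Mt1 was 3.51 and 3.76 in the control pools and 4.23 and 4.38 in the cyclopamine pools of replicates 1 and 2. For Mt2 these levels were 3.45 and 3.54 in the control and 4.06 and 4.38 with cyclopamine. On this scale the lowest cyclopamine pool lay above the highest control pool, by 0.46 for Mt1 and by 0.52 for Mt2.

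**Figure D1:**
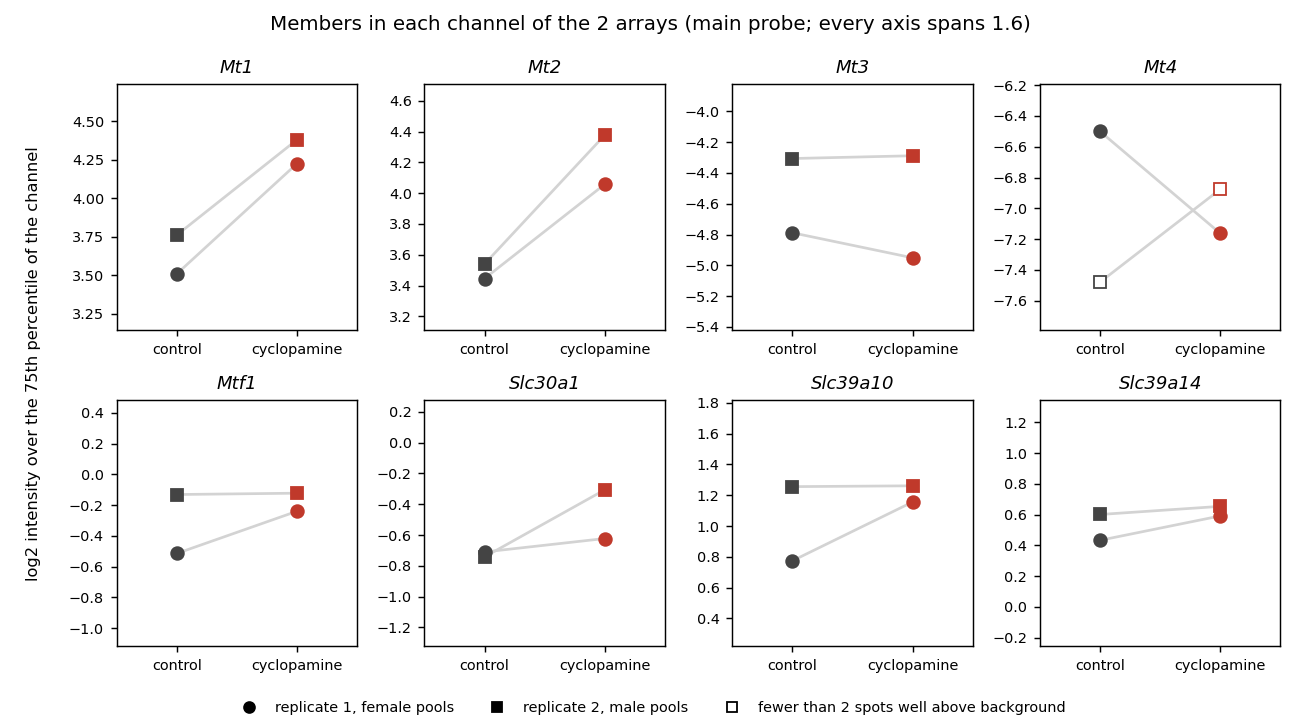
Log2 intensity of the main probe of each member relative to the 75th percentile of its channel (y axis), in the control and cyclopamine pools (x axis). Circles are replicate 1 (female pools), squares replicate 2 (male pools), lines join the pools of an array, and open symbols mark channels with fewer than 2 of 4 spots well above background; both arrays climb for Mt1 and Mt2, and Mt4 was not measured on replicate 2. Levels are comparable within a gene only.

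Mt1 has a second probe (chr8:96703844-96703903, mm9), designed on a predicted transcript variant. It was dim, with intensities of 221 in the control and 184 with cyclopamine on replicate 1, and 17.6 and 29.0 on replicate 2. Its log2 ratio was -0.26 on replicate 1 and 0.72 on replicate 2, so it was lower with cyclopamine in the female pools and higher in the male pools. The higher Mt1 signal on both arrays therefore rested on the probe of the curated transcript.

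Mt3 was barely measured: its intensities were 121 in the control and 108 with cyclopamine on replicate 1, and 31.7 and 32.1 on replicate 2. The log2 ratios were -0.16 and 0.02, with a spread between spots of 0.11 and 0.18. Mt4 read 36.9 in the control and 23.3 with cyclopamine on replicate 1 (log2 ratio -0.66). On replicate 2 it was well above background in 0 of 4 control spots and 1 of 4 cyclopamine spots, so no ratio is given there. The Mt4 probe covers 539 bases of mm9 chromosome 8 and so crosses an intron.

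The 4 metallothionein genes lie side by side on chromosome 8, in the order Mt4, Mt3, Mt2, Mt1. Their nearest protein-coding neighbours with a probe by RefSeq order, picked after the values were seen, were Bbs2 beside Mt4, with log2 ratios of -0.08 and -0.31, and Nup93 beside Mt1, with 0.08 and -0.15. Beyond Bbs2, Ogfod1 had 0.42 and 0.03, and beyond Nup93, Slc12a3 was not well above background.

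Of the genes of zinc control, Mtf1 read 2337 in the control and 2835 with cyclopamine on replicate 1, and 573 and 576 on replicate 2. Its log2 ratios were 0.28 and 0.01. The other 2 Mtf1 probes, both dimmer, gave 0.66 and 0.07 in one case and -0.37 and 0.29 in the other, so the 3 probes of the gene (all on chromosome 4) shared no direction on replicate 1. Slc30a1, which carries zinc out through the plasma membrane, read 2040 and 2174 on replicate 1 and 375 and 507 on replicate 2 in control and cyclopamine pools, with log2 ratios of 0.09 and 0.43. On the scale of the 75th percentile its cyclopamine pools lay above its control pools by 0.09; of the other members only Mt1 and Mt2 had no overlap. On that scale 14.1% of all genes tested had cyclopamine pools above control pools with no overlap.

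Slc39a10, a zinc importer of the plasma membrane, read 5707 in the control and 7461 with cyclopamine on replicate 1, and 1499 and 1502 on replicate 2. Its log2 ratio was 0.39 in the female pools and 0.00 in the male pools. Slc39a14, an importer of zinc, manganese and iron, read 4506 and 5044 on replicate 1 and 952 and 986 on replicate 2, with log2 ratios of 0.16 and 0.05. The probes lie on mm9 chromosome 1 (Slc30a1, chr1:193736760-193736819, and Slc39a10, chr1:46865343-46865402) and 14 (Slc39a14, chr14:70703394-70703453). The array annotation gives no exon or UTR for any of the probes.

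The members differed in how far their arrays lay apart. The log2 ratio of replicate 1 minus that of replicate 2, which goes with sex, dye and replicate together, was 0.10 for Mt1 and -0.22 for Mt2, in size well under their mean ratios of 0.67 and 0.73. It was -0.34 for Slc30a1, 0.38 for Slc39a10, 0.27 for Mtf1 and 0.113 for Slc39a14, each larger in size than the mean ratio of the gene (0.26, 0.19, 0.14 and 0.107 in the same order). The ratios of these 4 genes therefore did not exceed the difference between their arrays.

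Set against all genes, 6 members passed a control intensity of 100 on both arrays, and 2 of these, Mt1 and Mt2, were at least 1.5-fold higher on each array, where 0.213% of 13645 such genes were. None was 1.5-fold lower, where 0.63% were. Since these ratios chose the members, nothing is read from the counts. Of the 7 members well above background, 6 were higher on both arrays by any amount and 0 lower, beside 28.6% and 29% of all 19347 genes tested. The median of their mean log2 ratios was 0.19, and that of all genes tested -0.01. Over all genes tested the SD of the log2 ratio was 0.45 on replicate 1 and 0.30 on replicate 2.

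**Figure D2:**
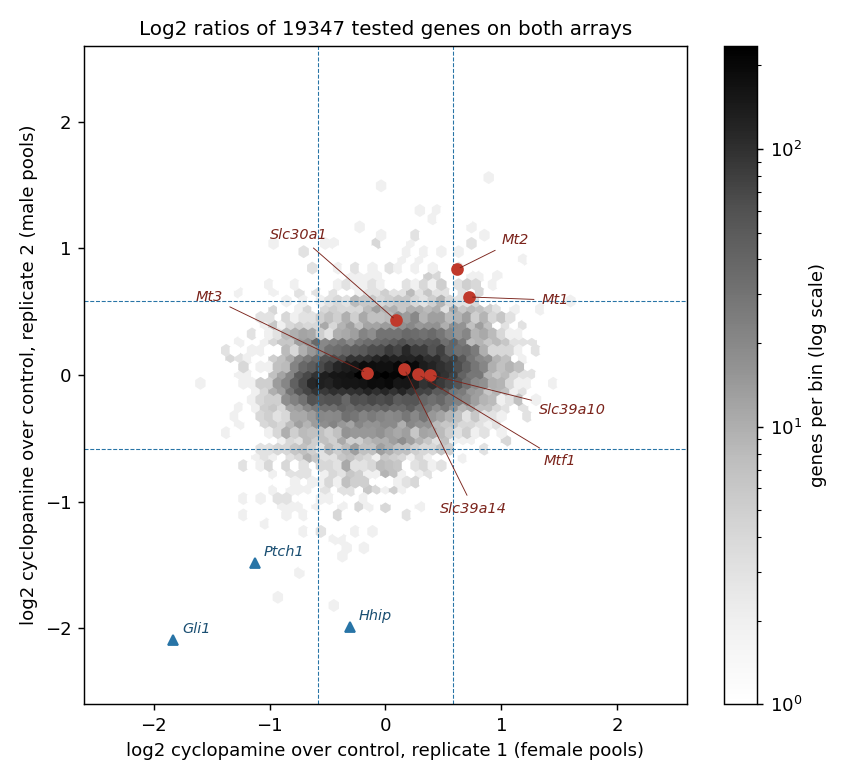
Log2 ratio of cyclopamine over control on replicate 1 (x axis, female pools) and replicate 2 (y axis, male pools) for 19347 tested genes, shaded by genes per bin on a log scale. Red circles are the 7 members tested, blue triangles SHH targets, dashed lines 1.5-fold; Mt1 and Mt2 lie beyond 1.5-fold in the upper right, the other members within it.

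The SHH pathway itself was lower, which checks the treatment. Gli1, Ptch1 and Hhip, transcriptional targets of SHH signaling, had mean log2 ratios of -1.96 ± 0.18, -1.31 ± 0.25 and -1.15 ± 1.19 (SD, n = 2 arrays), with limma adjusted p of 1.8e-08, 0.00025 and 0.0068 over all probes tested. Hhip differed most between the arrays, with -0.31 on replicate 1 and -1.99 on replicate 2. A second, dimmer probe of Hhip had -0.99 and -2.32, and one of Ptch1 had -0.54 and -1.42.

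Other zinc transporters were read next, from lists fixed with earlier results of these arrays known. Of the 21 further genes of the SLC30 and SLC39 families 16 were tested. Of the exporters 4 of 6 were higher and 0 lower on both arrays, and of the importers 3 of 10 were higher and 2 lower. Over all genes tested 28.6% were higher and 29% lower on both arrays. By the brightest probe of each gene, the mean log2 ratios of the 16 transporters lay between -0.10 (Slc30a2) and 0.28 (Slc39a3), all below those of Mt1 and Mt2. Of genes named after their values were seen, Slc30a9 had 0.21 and 0.22, and Slc30a5, a transporter of the early secretory pathway, 0.34 and 0.17. A dimmer probe of Slc30a9 had 0.32 and 0.33. Slc30a7, also named after its values were seen, had 0.05 and 0.19 by its brightest probe and 0.99 and 0.20 by a dimmer one. The medians of the mean log2 ratios were 0.12 for the exporters (0.13 on each array) and 0.08 for the importers (0.08 on replicate 1 and -0.0013 on replicate 2). Limma, fitted over 25975 probes with Benjamini-Hochberg adjustment, called none of the 16 transporters by its brightest probe.

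Over all 7 lists of metal, hormone and cytokine genes together, 55 of 62 genes were tested, and limma called 0 higher and 0 lower at an adjusted p of 0.05, where it called 0.439% of all genes higher and 0.868% lower. How many of all genes had an unadjusted limma p under 0.05 was not counted, so nothing is read from the number of list genes there. Of the list genes, 3 were higher and 1 lower at that limit. Named after their values were seen, these were Gclc, Slc40a1, Tfrc and Cox17. Gclc, which makes a subunit of the enzyme that starts glutathione synthesis, had log2 ratios of 0.89 and 0.45 (limma adjusted p = 0.18). The iron exporter Slc40a1 had 0.86 and 0.31 (limma adjusted p = 0.31), and the transferrin receptor Tfrc 0.58 and 0.33 (limma adjusted p = 0.53). The copper chaperone Cox17 had -1.41 and 0.19 (limma adjusted p = 0.36). Its probe was dim, with 53.0 in the control and 19.9 with cyclopamine on replicate 1, and 8.2 and 9.4 on replicate 2. By the brightest probe of each gene, Gclc alone among the tested list genes had a mean ratio as large as that of Mt1. Dimmer Tfrc probes had higher ratios on replicate 1 than its brightest probe, with 0.97 and 0.52 in one case and 0.66 and 0.31 in another.

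Named below after their values were seen are Hmox1 and Nr3c1. The counts of genes higher or lower on both arrays stand beside 28.6% and 29% of all genes tested. By list, the mean log2 ratios had a median of -0.15 for the other reported MTF1 targets (4 tested; 1 higher and 2 lower on both arrays), 0.26 for iron handling (10 tested; 6 higher, 0 lower; 0.41 on replicate 1 and 0.05 on replicate 2) and -0.08 for copper handling (9 tested; 1 higher, 3 lower). The other MTF1 targets thus included Gclc on the higher side, with Hmox1, which makes heme oxygenase, at -0.20 and -0.09. For the glucocorticoid response genes the median was 0.18 (8 tested; 2 higher, 0 lower), but 0.19 on replicate 1 and -0.05 on replicate 2, with the receptor gene Nr3c1 at 0.94 on replicate 1 and -0.09 on replicate 2. For the IL6 and acute phase genes it was 0.16 (8 tested; 3 higher, 2 lower), with 0.26 on replicate 1 and 0.02 on replicate 2.

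**Figure D3:**
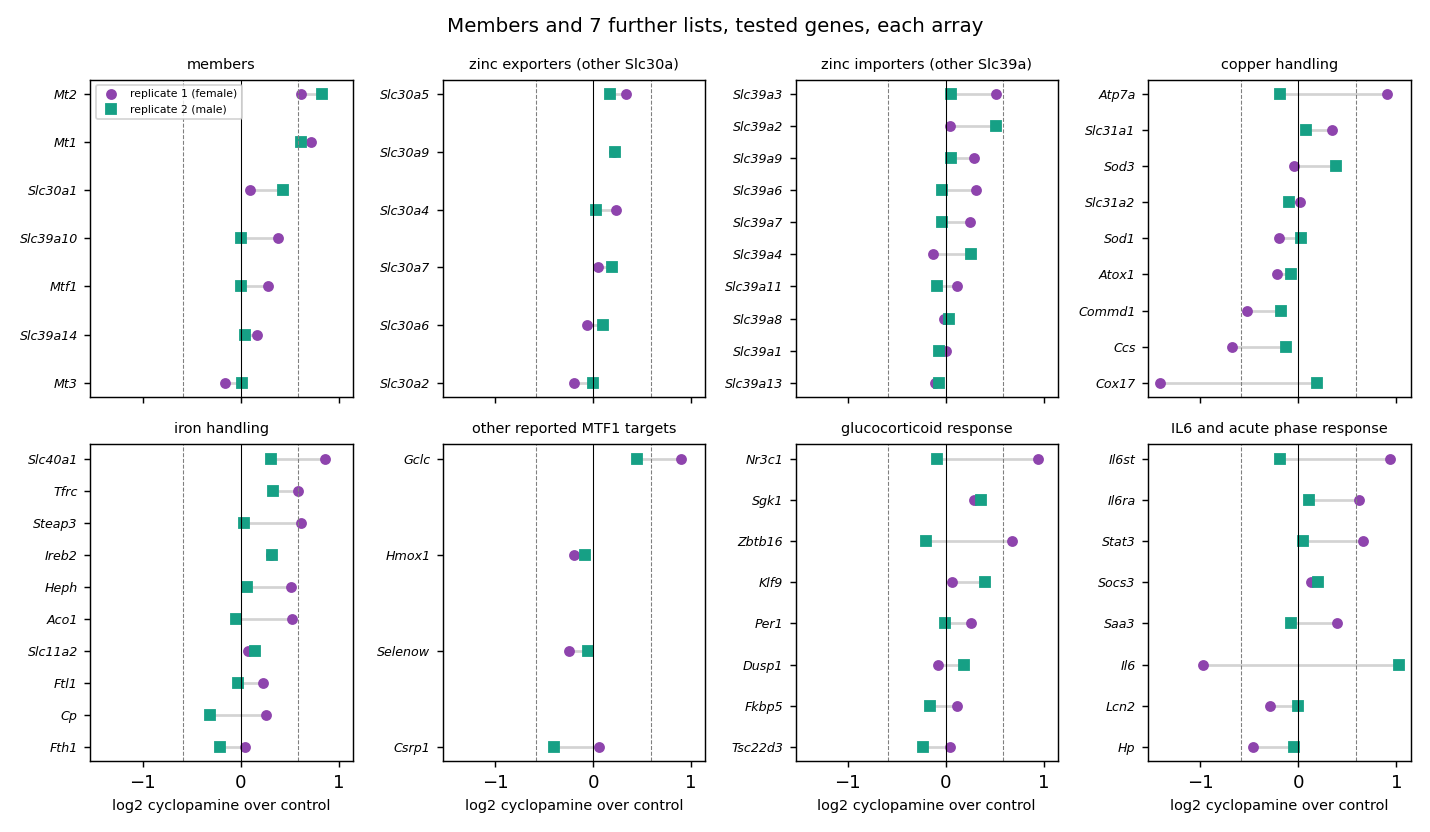
Log2 ratio of cyclopamine over control (x axis) of the tested members and of the tested genes of 7 further lists, ordered by mean ratio, with replicate 1 (female pools) as circles and replicate 2 (male pools) as squares. Dashed lines mark 1.5-fold; Mt1 and Mt2 are the genes with both symbols beyond it on the right.

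The genes with pairs of log2 ratios closest to that of Mt1, among 13639 other names above the intensity limit of 100, were Pla2g7 (Euclidean distance 0.0040), Cpm (0.04), Cmpk2 (0.05), a probe with no gene name (0.05) and Lama1 (0.05). For Mt2 they were Ptprr (0.06), Nqo1 (0.12), Ifit3b (0.12), Rsad2 (0.12) and Slfn2 (0.16). Mt1 and Mt2 were 0.24 apart. This likeness is over 2 arrays only.

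In whole ureters a higher signal from each cell and more cells of a type cannot be told apart. The summed intensity of 6 smooth muscle markers had a log2 ratio of -0.12 on replicate 1 and -0.70 on replicate 2, with medians of -0.12 and -0.62. The 4 lamina propria markers had -0.75 and -0.88, and the study listed all 4 as lower on these arrays. Aldh1a2 was already its marker of this layer from earlier work. Ptch1, which it had also mapped to this layer, is an SHH target. Thy1 and Car3 were taken up as candidates from these arrays, so the direction of the 4 is not independent evidence. The 8 urothelium markers had 0.12 and 0.09, the 5 endothelium markers 0.58 and -0.19, and the 5 leukocyte markers 0.09 and -0.11. The 5 adipocyte markers had -0.28 and -0.26 as a sum, of which Fabp4 made up 93.8% to 98.7%, whereas the median of the 4 tested was -0.47 on replicate 1 and -0.91 on replicate 2. Of the 5 kidney tubule markers 3 were not well above background, and their summed intensity was at most 220 in any channel. The part of these shifts in the metallothionein ratios was not tested. The urothelium and the smooth muscle layer were both present by their markers, with summed intensities of 76986 to 363798 and 56845 to 350097 over the 4 channels.

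Gene length moved with the ratios as well: on replicate 1 short genes had lower ratios, and the fitted trend was -0.33 at the length of Mt1 (1445 bp) and -0.35 at that of Mt2 (950 bp), against -0.05 and -0.06 on replicate 2. With this trend removed, an alternative chosen after seeing the data, the mean log2 ratios were 0.86 for Mt1 and 0.93 for Mt2.

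**Figure D4:**
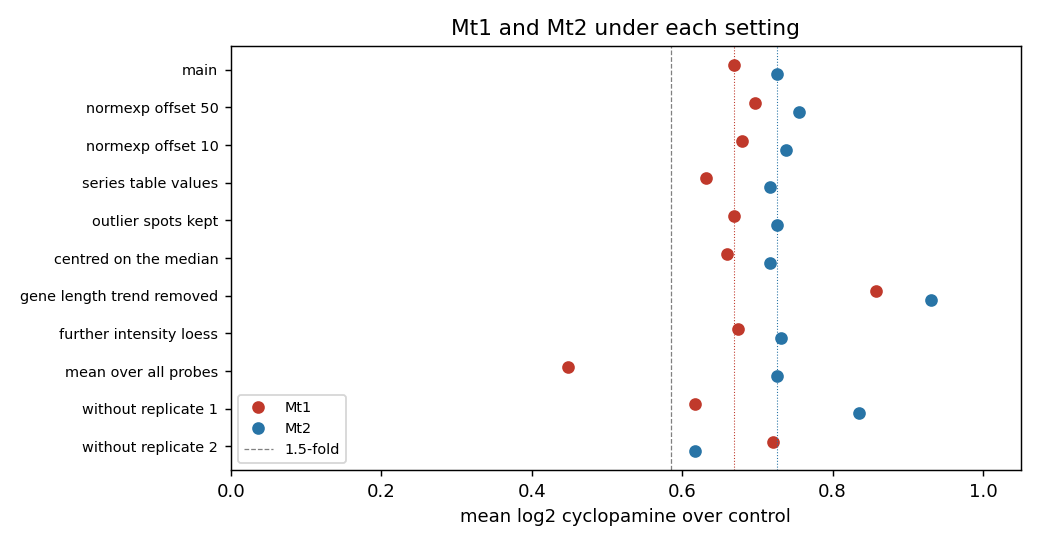
Mean log2 ratio of cyclopamine over control (x axis) of Mt1 and Mt2 under the main processing and 10 alternatives (y axis); without replicate 1 or 2 it is the ratio of the array left. The dashed line marks 1.5-fold and dotted lines the main values; Mt1 falls below 1.5-fold when its 2 probes are averaged (0.45), and Mt2 stays between 0.62 and 0.93.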

How the data were processed

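The deposited scanner files hold spot intensity per channel, as the authors extracted it from the scans (Feature Extraction, version 12.2.0.7 in the headers and 10.7.3.1 in the labels), with background detrending, surrogate values for dim spots and linear and LOWESS dye normalisation. The deposited log10 ratio, red over green, was used only to check the direction. The authors' deposited series table holds a score, a signed fold change rounded to a single decimal. Outlier and background flags are other deposited values of the scanner software.

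Control spots and outlier spots (2.89% and 3.15%) were left out, no spot was saturated, and the up to 4 spots of each of 39429 probes were averaged as log2. Spots well above background made up 64.8% to 70.0% of a channel. Groups and dyes came from the labels. Probes well above background in at least 0.5 of the spots of a treatment on both arrays (25975) were tested with limma 3.58.1 in R 4.3.3 (lmFit, eBayes, +1 and -1 for dye orientation, Benjamini-Hochberg, limit 0.05). With 1 residual degree of freedom the variance rests mostly on the prior (51.9 degrees of freedom). A p-value thus reflects the typical spread over all probes far more than a gene's own spread between these pools. Precision is limited by the number of arrays. On simulated ratios of this comparison over 25975 probes, with variances near each probe's own, limma called 2.7% of changes of 0.7, 84.1% of 1.2 and 100% of 2 (log2), with 13 unchanged among 131 calls. With variances from its own prior it called 29.8%, 91.4% and 100%, and 13 unchanged among 167.

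The rule named the 8 members, list genes past a limit (none), 3 SHH targets and the 5 nearest to Mt1 and to Mt2; all other genes in the text were picked after their values were seen. The members and lists were chosen with earlier results of these data known. Selenow was found as Sepw1 through RefSeq synonyms. Trends were fitted with statsmodels lowess (fraction 0.3).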

Additional observations from a re-analysis of the deposited data

Results flagged for a closer look

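Listed here are measured member probes with opposite signs in the female and male pools and both ratios larger in size than the spread between spots, and genes of the 7 further lists past 1.5-fold in opposite directions; other genes ran in opposite directions by less. The differences were not tested and cannot be told apart from the dye swap. The second Mt1 probe had log2 ratios of -0.26 in the female and 0.72 in the male pools, a difference of -0.98. A dimmer Mtf1 probe had -0.37 and 0.29, a difference of -0.66. Both probes had a control intensity under 100 in the male pools. Il6, the cytokine gene, had -0.97 and 1.02, a difference of -1.99.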

How the results depend on the processing

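The count of members at least 1.5-fold higher on both arrays was 2 under the main processing and 1 when all probes of a gene were averaged, since the dim second probe lowers Mt1. It was 0 at a limit of 2-fold, and 2 under the other 10 alternatives (in the rounded series values Mt1 on replicate 2 and Mt2 on replicate 1 stood exactly at 1.5-fold) and on each array alone (2 to 2). The count of members lower was 0 throughout. The mean log2 ratio of Mt1 was 0.86 and that of Mt2 0.93 without the gene length trend, and Mt1 was 0.45 with its probes averaged. Under the other alternatives both moved by less than the SD over the arrays. The values of each array alone were 0.62 to 0.72 for Mt1 and 0.62 to 0.84 for Mt2. For the other 5 members tested, 38 of 40 alternative values over both arrays moved by less than that SD. For Slc39a10 and Mtf1 that SD (0.27 and 0.19) was larger than the mean ratio (0.19 and 0.14), so this is a wide limit. Without the length trend Slc39a10 fell to 0.04 and Mtf1 to 0.03, while Slc30a1 rose from 0.26 to 0.36. On replicate 2 alone Slc39a10 and Mtf1 were at 0.0027 and 0.0061. Mt3 and Slc39a14 changed sign without the length trend, to 0.11 and -0.0048, and Mt3 without replicate 1, to 0.02. Limma called 0 list genes in either direction under all alternatives. Past 1.5-fold on an array alone, with no test, were 1 to 9 genes higher (1 without replicate 1, 9 without replicate 2) and 0 to 3 lower. Each ratio already pairs the pools of an array, so no further block was fitted. Mt4 was near background on replicate 2, and the number of arrays limits what can be read from small ratios.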
